A study of Rattus norvegicus with 4 samples.

Results

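The genes described here build and anchor the cardiac Z-disc, the titin filament and the sarcomere as it assembles. The list names 10 genes, Ttn, Actn2, Ldb3, Tcap, Myoz2, Csrp3, Nebl, Des, Smyd1 and Pdlim5, and was matched by gene symbol to the deposited table. Of these, 8 had a row, among 14137 gene identifiers in all, and Ttn and Tcap were not analysed here. Expression was measured by RNA sequencing in NRVMs, neonatal rat ventricular cardiomyocytes, a primary culture of beating heart muscle cells in which non-muscle heart cells remain. The KO group was infected with lentivirus expressing CRAT shRNA and the WT group with lentivirus expressing control shRNA, so KO here names a knockdown and both groups carry a virus and a hairpin. RNA was taken after 5 days, and there were 2 libraries in each group. The labels give neither the hairpin's sequence nor the number of animals or cultures, so p-values measure the spread between these libraries, which may be technical.

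In heart muscle the Z-disc is the border of the sarcomere, where actin filaments of neighbouring sarcomeres are cross-linked and titin is anchored. Alpha-actinin is its main cross-linker, and proteins with PDZ and LIM domains, the myozenins and the muscle LIM protein sit on it as adaptors that link the lattice to titin and to signalling enzymes. Desmin filaments tie neighbouring Z-discs to each other and to the cell membrane. Mutations in several of these genes cause dilated or hypertrophic cardiomyopathy in people.

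The libraries differed widely in depth. Recovered reads totalled 321516 and 1622998 in KO replicates 1 and 2, against 23680064 and 1321735 in WT replicates 1 and 2. Values are given in RPM, reads scaled to the library's total, which are not divided by gene length and so are compared between libraries and never between genes. A single read was worth 3.11 and 0.616 RPM in the KO libraries and 0.0422 and 0.757 RPM in the WT libraries. Crat, the targeted gene, which encodes carnitine acetyltransferase, had 24.9 and 19.7 RPM in KO libraries and 148 and 156 RPM in WT libraries. Of 8 listed cardiomyocyte markers 7 had a row (Myh6, Tnnt2, Tnni3, Actc1, Ryr2, Myl3 and Nppa), and each of these had reads in every library. So did each of 8 fibroblast markers, so the presence of reads does not show how pure the cultures were.

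Z-disc and assembly genes were lower in KO than in WT libraries. All 8 measured members had lower values in both KO libraries than in either WT library, a pattern met by 21.7% of the 12949 gene identifiers tested. By limma, with Benjamini-Hochberg adjustment over all genes tested and a threshold of 0.05, 7 of the 8 fell and 0 rose, where 6.36% of all genes tested were called lower; at an unadjusted p under 0.05, and in edgeR and DESeq2, 0 rose as well. Among the 2151 genes averaging 100 RPM or more, the range in which all members but Smyd1 lie, 20.9% were called lower and 34.0% were lower without overlap. Dividing by median-of-ratios size factors, edgeR and DESeq2 on the recovered reads each called all 8 lower, beside 9.68%, 15.9% and 6.68% of all genes. Without WT replicate 1, the deepest library, 3 members were called (Actn2, Des and Pdlim5, beside 1.36% of all genes). The variance trend lets the spread that genes share depend on expression level. Without that trend 0 members were called (beside 0.61% of all genes), with 5 lower at an unadjusted limma p under 0.05. The median log2 fold change of the 8 members was -0.77, beside 0.15 over all genes tested. Together the members held 2619 and 2802 RPM in KO libraries, against 5161 and 5111 RPM in WT libraries. With bulk RNA, fewer cardiomyocytes and less RNA per cardiomyocyte cannot be told apart.

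**Figure D1:**
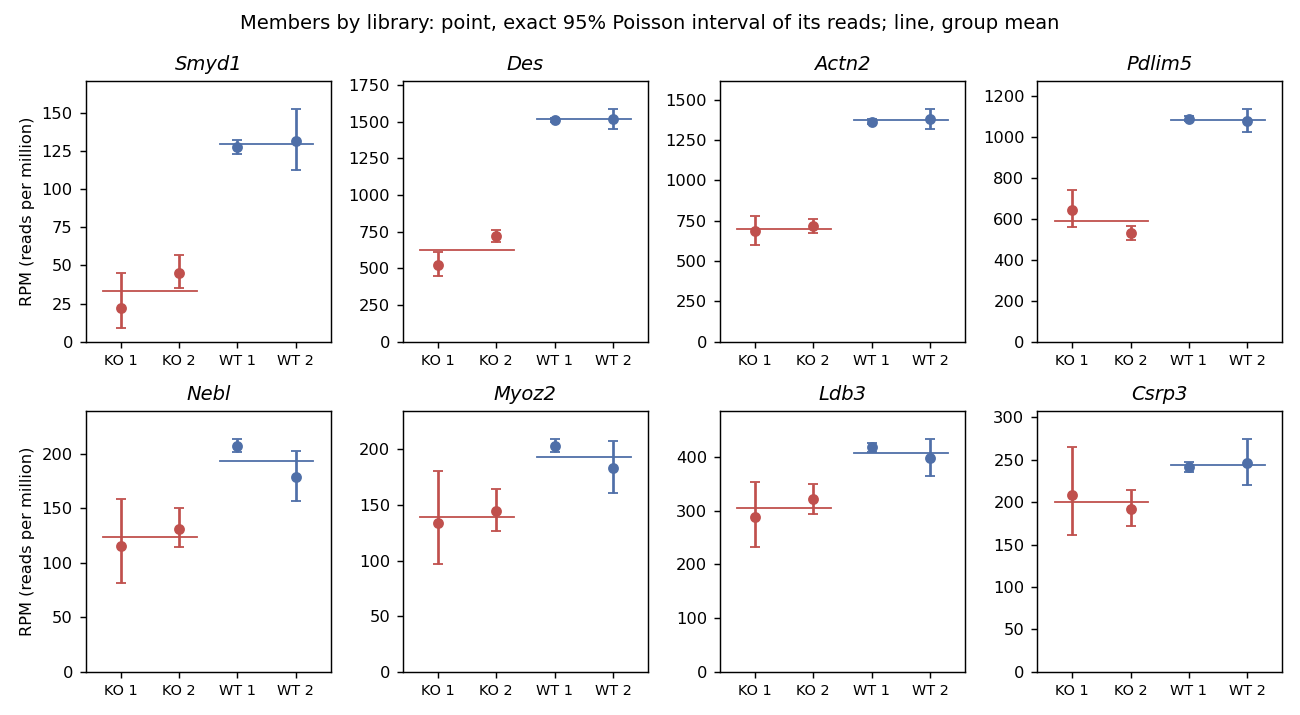
RPM of each of the 8 measured members (y axis, from 0) in the 2 KO libraries (red, left) and the 2 WT libraries (blue, right), with exact 95% Poisson intervals of the reads, which cover counting error only, and lines at the group means. The KO points lie below the WT points in each panel; as a fraction of the WT mean the KO mean is lowest for Smyd1, at 25.8%, and highest for Csrp3, at 82.2%.

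Upstream sequences are given for the members with the largest falls, Smyd1 and Des, for Actn2, and for Myoz2 and Ldb3, which hold matches to boxes bound by muscle transcription factors. They are the 250 bases before the annotated start site, 5′ to 3′, from RefSeq promoter windows of build GRCr8, matched by symbol, whereas the submitters' processing notes name build mRatBN7.2 for the counts. Windows were at hand for 8 of the 10 listed genes, Ttn among them, and not for Csrp3 and Tcap. Capitals mark motif matches on either strand, for the MEF2 box, the CArG box of serum response factor, the GATA motif AGATAA, the MCAT motif CATTCC, the E-box CAGCTG and the TATA box TATAAA. The Smyd1 window lies at chr4:104811273-104811522 on the minus strand, Des at chr9:84299376-84299625 on the plus strand, Actn2 at chr17:62834805-62835054 on the plus strand, Myoz2 at chr2:213852779-213853028 on the minus strand and Ldb3 at chr16:9924680-9924929 on the minus strand, the last inside the outer boundary of its annotated gene.
Smyd1: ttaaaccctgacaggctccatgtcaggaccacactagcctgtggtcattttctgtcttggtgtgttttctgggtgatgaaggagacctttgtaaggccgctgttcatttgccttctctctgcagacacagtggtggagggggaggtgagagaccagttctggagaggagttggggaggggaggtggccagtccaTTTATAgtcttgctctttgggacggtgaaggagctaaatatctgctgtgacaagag
Des: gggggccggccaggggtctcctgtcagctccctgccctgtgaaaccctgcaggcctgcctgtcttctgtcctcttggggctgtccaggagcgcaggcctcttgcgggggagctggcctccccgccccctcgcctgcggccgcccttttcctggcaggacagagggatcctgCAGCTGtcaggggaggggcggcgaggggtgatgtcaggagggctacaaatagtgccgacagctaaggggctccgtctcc
Actn2: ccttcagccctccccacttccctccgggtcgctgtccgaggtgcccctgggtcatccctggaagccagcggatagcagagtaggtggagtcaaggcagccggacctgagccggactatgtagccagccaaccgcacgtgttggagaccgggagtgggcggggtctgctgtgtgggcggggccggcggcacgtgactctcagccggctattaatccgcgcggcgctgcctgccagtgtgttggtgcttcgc
Myoz2: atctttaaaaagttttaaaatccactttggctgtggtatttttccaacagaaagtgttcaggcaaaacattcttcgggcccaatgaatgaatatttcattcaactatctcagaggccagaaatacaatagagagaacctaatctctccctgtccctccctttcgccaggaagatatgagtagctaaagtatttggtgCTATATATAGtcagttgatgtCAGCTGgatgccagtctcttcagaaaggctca
Ldb3: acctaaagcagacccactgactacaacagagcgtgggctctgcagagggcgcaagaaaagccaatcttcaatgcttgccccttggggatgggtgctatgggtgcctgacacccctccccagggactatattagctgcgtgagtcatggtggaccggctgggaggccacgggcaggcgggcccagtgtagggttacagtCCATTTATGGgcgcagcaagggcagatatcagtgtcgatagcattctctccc

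In windows of 300 bases, which add 50 bases after the start, the MEF2 box was found in Myoz2 at position -53 and in Ttn at -166, and in 3.29% of all 33469 rat windows. The CArG box was found in Ldb3 at -52 and in 1.64% of all windows. Nebl also held a CArG box, but its window lies deep inside the annotated gene and is not printed. An E-box stood at -79 in Des and at -32 in Myoz2, against 15.1% of all windows, and a TATA box on the opposite strand of the gene at -56 in Smyd1, against 14.2%. The MCAT motif was found in Ttn after the start site, against 14.2% of all windows, and the GATA motif in none of the 8, against 11.6%. No matches overlapped. No motif was shared by the members that fell most, and the windows of Actn2 and Pdlim5 held none of the 6 motifs. These matches describe letters in a window and not binding.

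Smyd1 encodes a muscle methyltransferase known from zebrafish to be needed for sarcomere assembly, where it works with myosin chaperones. It had 21.8 and 45.0 RPM in KO libraries, against 127 and 132 RPM in WT libraries. The KO values rest on 7 and 73 reads, and exact 95% Poisson intervals ran from 8.75 to 44.9 RPM and from 35.3 to 56.6 RPM. Both KO libraries lay far below the WT libraries, which were close to each other. The log2 fold change of Smyd1 was -2.01 ± 0.29 (SE, n = 2 libraries in each group; limma adjusted p = 9.5e-04), and the KO mean was 25.8% of the WT mean. Its size moved with the KO library kept, from -1.51 without KO replicate 1 to -2.52 without KO replicate 2, and its call was lost without WT replicate 1 (limma adjusted p = 0.0826).

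Des encodes desmin, the muscle intermediate filament around the Z-disc. Des stood at 523 and 721 RPM in KO libraries and at 1510 and 1518 RPM in WT libraries. The KO libraries did not overlap the WT libraries, but they differed from each other. An exact binomial test of the reads of the 2 libraries of a group, run for the 8 members in both groups (16 tests), gave a Benjamini-Hochberg adjusted p of 9.4e-04 for Des in the KO pair. That test compares those libraries and not the conditions. In the other 15 tests the adjusted p was 0.0943 or above. The log2 fold change of Des was -1.30 ± 0.12 (SE, n = 2 in each group; limma adjusted p = 6.1e-05), with values of -1.07 without KO replicate 1 and -1.53 without KO replicate 2.

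Actn2 encodes alpha-actinin 2, the actin cross-linker of the cardiac Z-disc. Its libraries lay close together within groups, with 684 and 718 RPM in KO libraries and 1366 and 1379 RPM in WT libraries. The Actn2 log2 fold change was -0.97 ± 0.06 (SE, n = 2 in each group; limma adjusted p = 2.5e-06), so that the KO mean was 51.1% of the WT mean. Its relatives Actn1 and Actn4, the alpha-actinins of non-muscle cells, fell to 53.8% and 55.3% of their WT means (limma adjusted p = 1.3e-04 and 1.1e-05). Actn1 is named because its profile was among the 5 nearest to the members' mean, and Actn4 was chosen after its values were seen. Their likeness to Actn2 therefore follows in part from how they were chosen, and the differences between the alpha-actinins were not tested.

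The PDZ and LIM domain adaptors Pdlim5 and Ldb3 bind alpha-actinin and protein kinase C. Their log2 fold changes differed in size, but that difference was not tested. Pdlim5, also called ENH, had 644 and 528 RPM in KO libraries, against 1087 and 1077 RPM in WT libraries. Its log2 fold change was -0.89 ± 0.09 (SE, n = 2 in each group; limma adjusted p = 1.0e-04). Ldb3, which encodes cypher or ZASP and whose window above holds the CArG box, had 289 and 322 RPM in KO libraries, against 418 and 398 RPM in WT libraries. Ldb3 fell by 0.42 ± 0.09 on the log2 scale (SE, n = 2 in each group; limma adjusted p = 0.00988). In the main fit the 95% interval of the Pdlim5 log2 fold change, -1.09 to -0.69, did not overlap that of Ldb3, -0.62 to -0.22. Without the variance trend the standard errors were larger, at 0.185 for Pdlim5 and 0.165 for Ldb3. Without WT replicate 1 the Ldb3 call was lost (limma adjusted p = 0.237).

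Nebl encodes nebulette, a short cardiac relative of nebulin that links the Z-disc to actin. Nebl had 115 and 131 RPM in KO libraries, from 37 and 213 reads, against 207 and 179 RPM in WT libraries. It fell by 0.64 ± 0.13 on the log2 scale (SE, n = 2 in each group; limma adjusted p = 0.00746). Myoz2 encodes calsarcin 1, an adaptor that holds the phosphatase calcineurin at the Z-disc, and its window holds the MEF2 box. Its values were 134 and 145 RPM in KO libraries and 203 and 183 RPM in WT libraries. Myoz2 fell by 0.47 ± 0.12 on the log2 scale (SE, n = 2 in each group; limma adjusted p = 0.0212). For both genes the groups were close but did not overlap. The Nebl call was lost without WT replicate 1 (limma adjusted p = 0.249), and the Myoz2 call without WT replicate 1 (0.375) or WT replicate 2 (limma adjusted p = 0.105).

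Csrp3, the muscle LIM protein, was the member that did not pass. It had 208 and 192 RPM in KO libraries and 241 and 246 RPM in WT libraries, a log2 fold change of -0.28 ± 0.10 (SE, n = 2 in each group; limma adjusted p = 0.0845; 95% interval -0.51 to -0.06). The call on Csrp3 depended on the scaling and on other settings. At unchanged scaling its log2 fold change was -0.34 without KO replicate 1 and -0.22 without KO replicate 2. Division by median-of-ratios size factors moved the median of all genes tested to -0.03, and with that scaling the Csrp3 log2 fold change was -0.47 (limma adjusted p = 0.00921), and edgeR on the recovered reads gave -0.51 (quasi-likelihood adjusted p = 7.0e-06). In the authors' deposited table the adjusted p was 0.0356 for Csrp3 and lower for the other 7 members. Its family members Csrp1 and Csrp2, LIM proteins of smooth muscle and other cells, had log2 fold changes of -1.04 ± 0.07 and -2.88 ± 0.26 (SE; limma adjusted p = 8.8e-06 and 4.4e-05). Csrp2 rests on 3 and 21 reads in the KO libraries and on 2258 and 106 in the WT libraries.

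**Figure D2:**
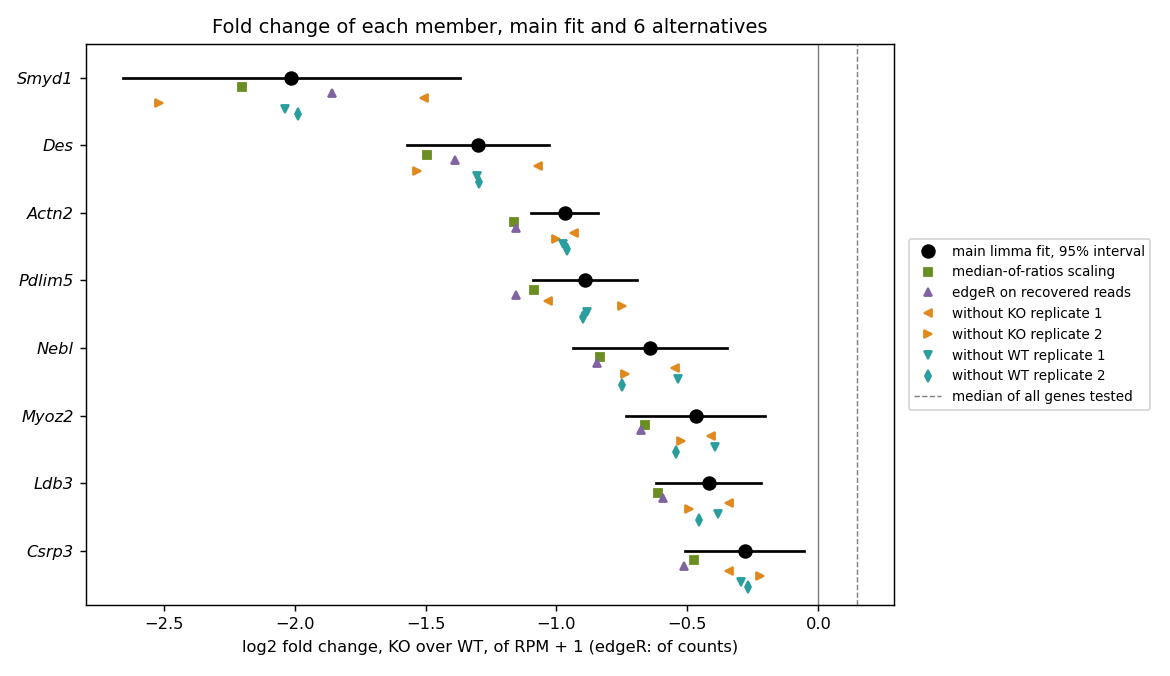
Log2 fold change of each member, KO over WT (x axis), with its 95% interval from the limma fit (black) and the value under 6 alternatives (coloured symbols). Each symbol lies below 0, and the leave-one-out values spread most for Smyd1, from -2.52 to -1.51; the dashed line is the median of all genes tested, 0.15.

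Ordered by log2 fold change, the members ran from Smyd1 through Des, Actn2, Pdlim5, Nebl, Myoz2 and Ldb3 to Csrp3. Each of the 7 neighbouring pairs in this order had overlapping 95% intervals in the main fit, while 15 of all 28 pairs did not overlap. By these intervals Smyd1, Des, Actn2 and Pdlim5 each lay apart from Ldb3 and from Csrp3. Without the variance trend the standard error of each member was larger, and differences between members were not tested.

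Shares within the members' own reads do not depend on how a library was scaled. Smyd1 took 0.831% and 1.61% of the members' reads in KO libraries, against 2.47% and 2.58% in WT libraries. Des took 20.0% and 25.7% in KO libraries, against 29.3% and 29.7% in WT libraries. At the other end Csrp3 took 7.96% and 6.86% in KO libraries, against 4.67% and 4.81% in WT libraries, and Ldb3 11.0% and 11.5% in KO libraries, against 8.10% and 7.79% in WT libraries. The Wilson 95% interval of the Csrp3 share was 6.31% to 9.98% in KO replicate 1, the shallowest library, and 4.33% to 5.35% in WT replicate 2. The share of Pdlim5 overlapped between groups, and that of Actn2 had overlapping Wilson intervals, with 26.1% and 25.6% in KO libraries and 26.5% and 27.0% in WT libraries. With 2 libraries against 2 an exact two-sided permutation test cannot go below p = 0.333, so these shares carry no test.

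**Figure D3:**
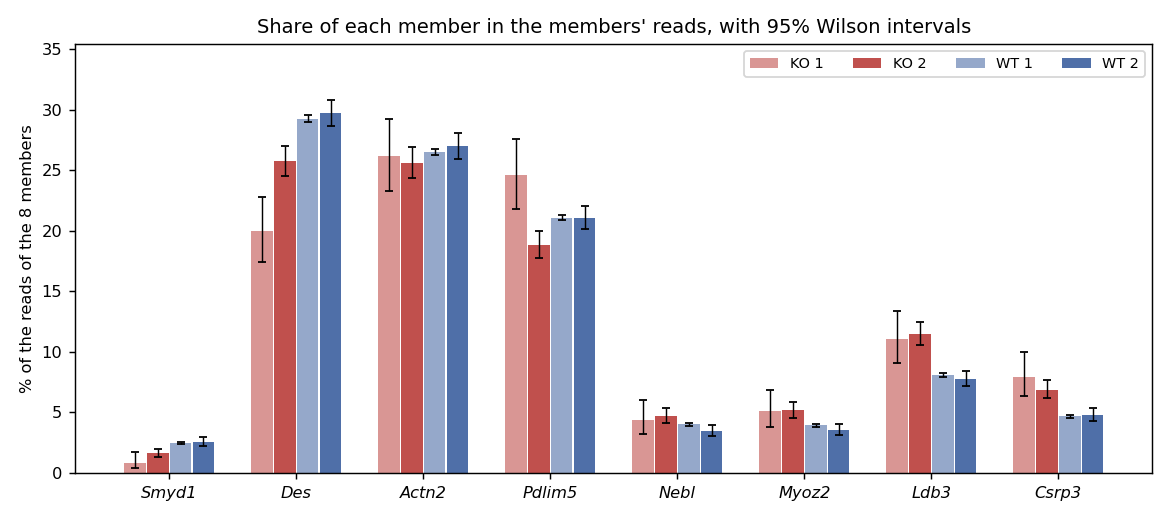
Share of each member in the reads of the 8 measured members (y axis, percent) in the KO libraries (red) and WT libraries (blue), with 95% Wilson intervals that cover counting error only. Smyd1 and Des take smaller shares in KO libraries, while Nebl, Myoz2, Ldb3 and Csrp3 take larger ones. For Nebl and Myoz2 the interval of KO replicate 1 overlaps those of both WT libraries. For Nebl that of KO replicate 2 also overlaps that of WT replicate 1. Shares add up to the whole, so a smaller share of some members raises those of others.

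Lists of related sarcomere genes were read in the same fit. Beside each count of lower calls stands the share over all genes tested, 6.36%, or 20.9% among genes averaging 100 RPM or more. Where 0 genes of a list are called higher by limma, 0 were also higher at an unadjusted p under 0.05, in edgeR and in DESeq2. Of 13 tested Z-disc relatives of the members, 7 fell and 0 rose, with a median log2 fold change of -0.68. Pdlim3, an alpha-actinin-binding PDZ and LIM protein, had 146 and 139 RPM in KO libraries, against 275 and 281 RPM in WT libraries (log2 fold change -0.96 ± 0.10, SE; limma adjusted p = 1.6e-04). Among 17 other Z-disc and Z-disc-linked genes 12 fell and 0 rose, with a median of -0.68. Fhl1, a LIM protein that binds titin, had 149 and 136 RPM in KO libraries, against 577 and 601 RPM in WT libraries. The log2 fold change was -2.04 ± 0.09 for Fhl1, -1.59 ± 0.06 for Sorbs2, an adaptor at Z-discs and cell contacts, and -1.57 ± 0.19 for Xirp2, an actin-binding repeat protein (SE; limma adjusted p = 3.9e-07, 1.8e-07 and 3.0e-04). Without WT replicate 1 the second list had 5 falls in place of 12, and without a variance trend the lists had 1 and 2. The call on Xirp2 was lost without WT replicate 1 (limma adjusted p = 0.0628), and without KO replicate 2 the first list had 1 higher call.

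Intermediate filament genes and their linkers fell in 5 of 9 tested cases and rose in 0, with a median log2 fold change of -0.94. Vim, vimentin, which is made by fibroblasts and other non-muscle cells, had 485 and 548 RPM in KO libraries, against 1384 and 1400 RPM in WT libraries (-1.43 ± 0.07, SE; limma adjusted p = 7.5e-07). Synm, synemin, a partner of desmin, had a log2 fold change of -1.49 ± 0.30 and Nes, nestin, one of -1.52 ± 0.32 (SE; limma adjusted p = 0.00679 and 0.0092). Nes rests on 4 and 41 reads in KO libraries and on 1257 and 70 in WT libraries. The counts of intermediate filament genes called lower were 2 without WT replicate 1, 3 without WT replicate 2 and 0 without a variance trend, and 1 was called higher without KO replicate 2. The calls on Synm and Nes were lost without WT replicate 1 (limma adjusted p = 0.246 and 0.233), and that on Synm also without WT replicate 2 (limma adjusted p = 0.0645).

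Among genes of titin-binding, I-band and M-band proteins 5 of 15 were called lower and 3 higher, with a median log2 fold change of 0.14. Over all 12949 genes tested 823 were called lower and 1631 higher, with a median of 0.15. Those values also stand beside the lists that follow. The log2 fold change was -2.54 ± 0.20 for Ckm, muscle creatine kinase, which sits at the M-band, -1.77 ± 0.13 for Trim55, the ubiquitin ligase MURF2, and -1.60 ± 0.11 for Myom1, myomesin, which cross-links thick filaments (SE; limma adjusted p = 2.0e-05, 9.6e-06 and 9.3e-06). Myom1 had 124 and 105 RPM in KO libraries, against 347 and 352 RPM in WT libraries. The 3 that rose, named after their values were seen, were the autophagy receptor Nbr1, the thick-filament protein Mybpc3 and Cmya5, myospryn, at 238%, 133% and 157% of their WT means. The 3 higher calls were 2 with median-of-ratios scaling or with mitochondrial transcripts left out, 1 with TMM scaling, in DESeq2 and without WT replicate 1, and 0 without a variance trend; the 5 lower calls were 3 without a variance trend.

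Among 13 tested genes of thin-filament length and actin nucleation 4 fell and 2 rose, with a median of -0.22. Tmod1, tropomodulin, which caps the pointed end of muscle actin filaments, had 56.0 and 57.3 RPM in KO libraries, against 130 and 141 RPM in WT libraries. Tmod1 fell by 1.24 ± 0.15 on the log2 scale (SE; limma adjusted p = 2.8e-04), while the widely expressed Tmod3 had 90.2 and 70.2 RPM in KO libraries, against 39.7 and 41.6 RPM in WT libraries, a log2 fold change of 0.95 ± 0.19 (SE; limma adjusted p = 0.00728). Lmod1, a leiomodin of smooth muscle, fell by 1.81 ± 0.37 (SE; limma adjusted p = 0.00801), from 2 and 21 reads in the KO libraries. The 4 lower calls were 1 without WT replicate 1, 2 without WT replicate 2 and 0 without a variance trend, but 6 with median-of-ratios scaling and 7 in edgeR and limma voom. The 2 higher calls were 1 with median-of-ratios or TMM scaling, with mitochondrial transcripts left out, in edgeR, in limma voom and without WT replicate 2, and 0 in DESeq2, without WT replicate 1 and without a variance trend. Without WT replicate 1 the calls on Lmod1 and Tmod3 were lost (limma adjusted p = 0.246 and 0.191), and that on Tmod3 also in DESeq2 (adjusted p = 0.0919).

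Chaperones of myosin and the sarcomere moved both ways, with 6 of 16 higher, 4 lower and a median log2 fold change of 0.09. Hspb8, a small heat shock protein that works with Bag3 to clear damaged sarcomere proteins, had 211 and 231 RPM in KO libraries, against 88.0 and 81.0 RPM in WT libraries. Hspb8 rose by 1.38 ± 0.12 and Dnajb6, a Z-disc co-chaperone, by 0.95 ± 0.14 on the log2 scale (SE; limma adjusted p = 5.1e-05 and 0.00128). Hspb1, another small heat shock protein, fell by 1.28 ± 0.12 (SE; limma adjusted p = 5.4e-05), with 90.2 and 90.6 RPM in KO libraries and 221 and 220.2 RPM in WT libraries. The myosin chaperone Unc45b and Naca, whose muscle isoform is a partner of Smyd1, also fell, to 61.8% and 63.8% of their WT means (limma adjusted p = 0.0126 and 0.00709; chosen after their values were seen). The higher calls on chaperones were 3 with median-of-ratios or TMM scaling and in DESeq2. Without WT replicate 1 there was 1 call in each direction and Dnajb6 did not pass (limma adjusted p = 0.0503), and without a variance trend there were 0 calls.

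**Figure D4:**
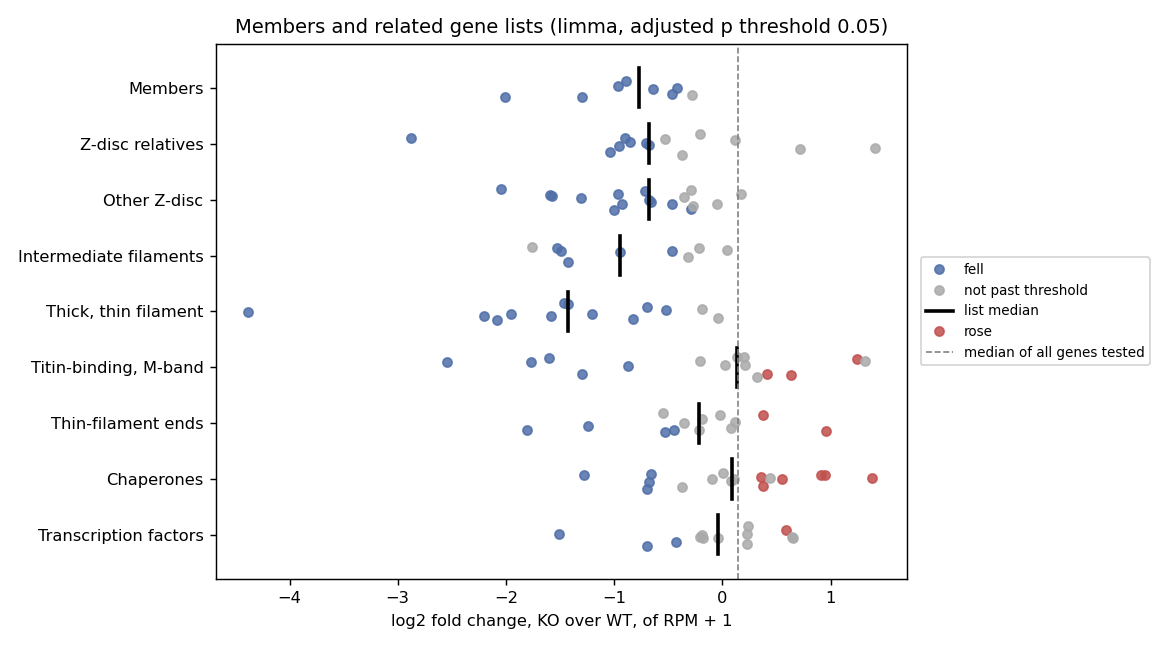
Log2 fold change, KO over WT (x axis), of each tested gene in the members and 8 related lists (rows), coloured by the limma call, with list medians as black bars and the median of all genes tested as a dashed line. The Z-disc, intermediate filament and thick- and thin-filament rows hold no gene called higher, while the titin-binding, thin-filament-end, chaperone and transcription factor rows hold calls both ways.

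Thick- and thin-filament genes of the cardiac sarcomere gave the nearest comparison. Of 13 tested 11 fell and 0 rose, with a median log2 fold change of -1.43, beside -0.77 for the members. Actc1, cardiac actin, stood at 23.6% of its WT mean, Tnnc1, cardiac troponin C, at 21.6% and Acta1, skeletal actin, at 4.72%, and each fell (limma adjusted p = 3.9e-09, 8.1e-08 and 8.8e-06). Acta1 rests on 5 and 11 reads in the KO libraries. These 3 genes had the largest falls of the list. Its KO means ran up to 97.2% of WT, for Myl4, which did not pass and is named after its values were seen. The members, from 25.8% for Smyd1 to 82.2% for Csrp3, lay within that range. The difference between the lists was not tested.

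The 7 cardiomyocyte markers summed to 10830 and 11147 RPM in KO libraries, against 27981 and 28440 RPM in WT libraries, and 6 of them fell. Ryr2, the calcium release channel of heart muscle, did not pass, with 414 and 505 RPM in KO libraries and 444 and 484 RPM in WT libraries. For each 100 RPM of these markers the members held 24.2 and 25.1 RPM in KO libraries, against 18.4 and 18.0 RPM in WT libraries. With Actc1 left out of the markers the members held 29.3 and 29.8 RPM in KO libraries, against 25.5 and 24.7 RPM in WT libraries. Set against the 7 markers Csrp3 stood at 1.92 and 1.72 RPM in KO libraries, against 0.862 and 0.865 RPM in WT libraries, and Smyd1 at 0.201 and 0.404 RPM in KO libraries, against 0.456 and 0.463 RPM in WT libraries. Against the sum of these markers, most of which fell themselves, Csrp3 was thus higher in KO libraries. The RPM of Ryr2 overlapped between groups, while Csrp3 and the members' sum had lower RPM in both KO libraries. The direction of these ratios therefore depends on the markers used. The Smyd1 values against the 7 markers were lower in KO libraries, but they rest on 7 and 73 reads. That of KO replicate 2 lay near the WT values. Des overlapped between groups, at 4.82 and 6.47 RPM in KO libraries and 5.40 and 5.34 RPM in WT libraries. The part of cardiomyocyte content in the members' fall was not tested.

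Markers of other cells moved as well. The 8 fibroblast markers summed to 16730 and 17068 RPM in KO libraries, against 22872 and 23860 RPM in WT libraries, with 5 lower and 2 higher. The 8 smooth muscle and pericyte markers summed to 1900.4 and 1811 RPM in KO libraries, against 5225 and 5334 RPM in WT libraries, with 6 lower and 1 higher, and Rgs5 had no read in KO replicate 1. Endothelial markers summed to 68.4 and 60.4 RPM in KO libraries, against 52.9 and 62.8 RPM in WT libraries, with 1 of 5 tested higher and 1 lower, no read of Vwf in either KO library and none of Cdh5 in KO replicate 1. Leukocyte markers summed to 62.2 and 58.5 RPM in KO libraries, against 52.2 and 50.7 RPM in WT libraries, and by limma 0 of 8 were called, also at an unadjusted p under 0.05 and in edgeR and DESeq2, with no read of Csf1r in KO replicate 1. Of the skeletal muscle markers Myh4 alone was measured, with 1 read in the KO libraries together. Desmin, vimentin, the alpha-actinins and the Csrp proteins are also made by some of these cells, and the part of cell makeup in their values was not tested.

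By likeness of profile over the 4 libraries, the genes nearest to the mean of the 8 members were Insig1, Ppp1r12b, Tmpo, Eef1b2 and Actn1. Likeness was the Euclidean distance between centred log2(RPM + 1) values, over 2144 genes outside the members averaging 100 RPM or more, and the 5 distances ran from 0.0228 to 0.0646. Their KO means stood between 52.9% and 54.4% of their WT means. Among the members Actn2 was nearest to that mean, at a distance of 0.139, and ranked 21 among genes at this level, so the profile is shared by many genes.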

How the data were processed

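Gene expression was measured in 4 libraries. The submitters' processing notes name kallisto, DESeq2 and build mRatBN7.2; how genes were summed is not stated there. The authors' deposited table has library columns headed TPM, per the file headers, but each deposited signal value is a whole multiple of 1 step per library (100% within 0.02 of a read), so the columns hold RPM (reads scaled to the library total) and whole reads were recovered. The authors' deposited p-value columns were not used in tests. Identifiers on several rows (140) were counted once.

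Genes averaging 1 RPM or more were kept, taken as log2(RPM + 1) and fitted with limma 3.58.1 (R 4.3.3) with a variance trend, KO over WT, with Benjamini-Hochberg adjustment over 12949 identifiers. The design had assumed TPM, and the test was kept. edgeR 4.0.16 and DESeq2 1.42.0 ran on the recovered reads as alternatives, among 17 in all. The fit gives all libraries 1 variance although depth differs 73.7-fold. Reads of the libraries of a group differed beyond counting error (chi-square per degree of freedom 1.29 for KO and 1.47 for WT), so they were used as 2 samples. The fitting step was checked on simulated reads whose spread followed expression level, so that check cannot test the variance trend. How reads shared by close relatives such as Actn1, Actn2 and Actn4 were split is unknown, so their values are uncertain.

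The text names the 10 listed genes, Crat, up to 3 called genes of each list by size of change with a mean of at least 5 RPM, and the 5 nearest profiles; exceptions are marked or are markers. The members and lists were chosen with earlier results of these data known.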

Additional observations from a re-analysis of the deposited data

How the results depend on the processing

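Each of the 8 members had a log2 fold change below 0 under the 17 alternatives run, and the count called, 7, was 7 or 8 in all but 3 of them. It was 0 without a variance trend, where adjusted p ran from 0.0743 for Actn2 to 0.338 for Csrp3, 3 without WT replicate 1 and 6 without WT replicate 2; with a library left out it ran from 3 to 8. Csrp3 passed under 7 alternatives. Over all genes, 2454 changed, and 345 without a variance trend, 3839 in edgeR, 1613 in DESeq2 and 4113 in limma voom. Without a library the count was 601 (WT replicate 1), 1271 (WT replicate 2), 3882 (KO replicate 1) or 6252 (KO replicate 2); a lone library is assumed to vary like the other group. Higher calls, 1631, were 1044 with median-of-ratios scaling, 1005 with TMM, 266 without a trend, 748 in DESeq2 and 425 to 3632 with a library left out. Lower calls, 823, were 1254 with median-of-ratios scaling, 1281 with TMM, 79 without a trend, 2065 in edgeR, 1975 in limma voom and 176 to 2620 with a library left out. The cause was not tested.

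The labels number the libraries alike in both groups, and the main fit did not take the numbers as pairs. Deviations of same-numbered libraries correlated at 0.00612 over genes. Counting noise in the shallow libraries can hide a pairing, so this value cannot decide it. With the replicate block 2596 genes changed, 1701 higher and 895 lower, and 7 members fell. Over 38 named genes, 588 values kept their direction and side of the threshold under the alternatives, 51 lost the call, 7 gained it and none reversed. Among the 8 members Smyd1 had the fewest reads in KO replicate 1, with 7.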

Other observations

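Of 13 tested transcription factors of heart muscle, 3 fell, 1 rose and 9 did not pass, with a median log2 fold change of -0.04. Over all 12949 genes tested, 823 fell and 1631 rose. Srf, serum response factor, which binds CArG boxes of sarcomere genes, had 74.6 and 61.0 RPM in KO libraries, against 108 and 112 RPM in WT libraries (log2 fold change -0.69 ± 0.16, SE; limma adjusted p = 0.0138). Nkx2-5, a homeobox factor of the heart, had 6.22 and 18.5 RPM in KO libraries, from 2 and 30 reads, against 35.3 and 30.3 RPM in WT libraries (-1.51 ± 0.44, SE; limma adjusted p = 0.0414). Tead1, which binds MCAT motifs, had 180.4 and 168 RPM in KO libraries, against 121 and 110 RPM in WT libraries (0.59 ± 0.12, SE; limma adjusted p = 0.00849). Each of these 3 calls was lost without WT replicate 1 (limma adjusted p = 0.241, 0.444 and 0.136), without WT replicate 2 (0.176, 0.0797 and 0.133) and without a variance trend (0.136, 0.205 and 0.143), for Srf, Nkx2-5 and Tead1 in that order. The call on Nkx2-5 was also lost with no filter (limma adjusted p = 0.0851) and in DESeq2 (adjusted p = 0.0764), and that on Tead1 with median-of-ratios scaling (limma adjusted p = 0.0518), with TMM scaling (0.0659) and in DESeq2 (adjusted p = 0.264). The list's 3 lower calls were 0 without WT replicate 1, without WT replicate 2 and without a variance trend, 1 with no filter and 6 in edgeR and limma voom. Its 1 higher call was 3 without KO replicate 2. The third gene that fell, named after its values were seen, was Mef2a, at 74.5% of its WT mean (limma adjusted p = 0.0382).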
